A study of Monascus purpureus with 9 samples.

Results

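The genes described here are the abundant transcripts of Monascus purpureus mycelium whose mean level hardly moved when either of 2 COMPASS subunits was missing. They were chosen from rows named gene_ with a number, by mean FPKM, the authors' deposited measure of a transcript's abundance, which adjusts its fragments for its length and for the size of the library. A member had a mean of at least 100 and under 1000 FPKM in the wild type (WT), and the log2 ratio of its mean FPKM + 1 over that of WT lay within 0.15 of 0 in the Swd3 knockout and in the Set1 knockout. On a linear scale a log2 ratio of 0.15 is 1.11-fold. The rule found 106 members among the 1035 gene_ rows of that WT range, among 8918 gene_ rows and among 9869 rows in all. Because group means chose them, the members' closeness to WT is a description and no finding, and no p-value is given for it.

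The series held 9 RNA-seq libraries of mycelium grown for 2 days in PDB medium, with 3 from a Swd3 knockout, 3 from a Set1 knockout and 3 from WT. The labels name no parent strain, no number of independent transformants and no separate cultures for the libraries of a group. A lost subunit and the history of a single strain therefore cannot be told apart, and every p-value below rests on a spread between libraries that may be technical. The summed FPKM per library ran from 705678 to 729434, and without counts the depth of each library is unknown. None of the 9869 rows could be paired with a gene name, so the transcripts of Swd3 and Set1 could not be used to check the labels, and no role is given to any member.

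COMPASS is a complex that methylates a lysine in the tail of histone H3, a mark found at the promoters of transcribed genes. Set1 is its catalytic subunit, and Swd3 is a WD-repeat protein of its core that the complex needs for its assembly in budding yeast. In filamentous fungi, COMPASS is known for its part in the control of gene clusters for secondary metabolites, the class of compounds to which the azaphilone pigments of Monascus belong. Transcripts with a steady level across strains are commonly sought as internal standards for expression measurements.

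Steady rows were a small part of the abundant ones. Of the 1035 rows at 100 to 1000 FPKM in WT, the 106 members made up 10.2%. A further 608 rows had ratios below 0 in both knockouts and 261 had ratios above 0 in both, with at least 1 ratio past the bound, and 60 had ratios of opposite sign. The bound was met in the Swd3 knockout alone by 104 rows and in the Set1 knockout alone by 73, while 752 met it in neither. Both ratios lay within the bound for 9.03% of the 4597 gene_ rows at 10 to 100 FPKM, for 7.59% of the 2278 rows at 1 to 10 FPKM and for 9 of the 87 rows at 1000 FPKM or more. Inside the chosen range the share was 11.6% at 100 to 200 FPKM (65 members), 8.93% at 200 to 400 FPKM (25 members) and 8.29% at 400 to 1000 FPKM (16 members). Only 2 rows named NewGene_, which the rule left out, lay in this WT range, and 0 of them met both bounds.

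**Figure D1:**
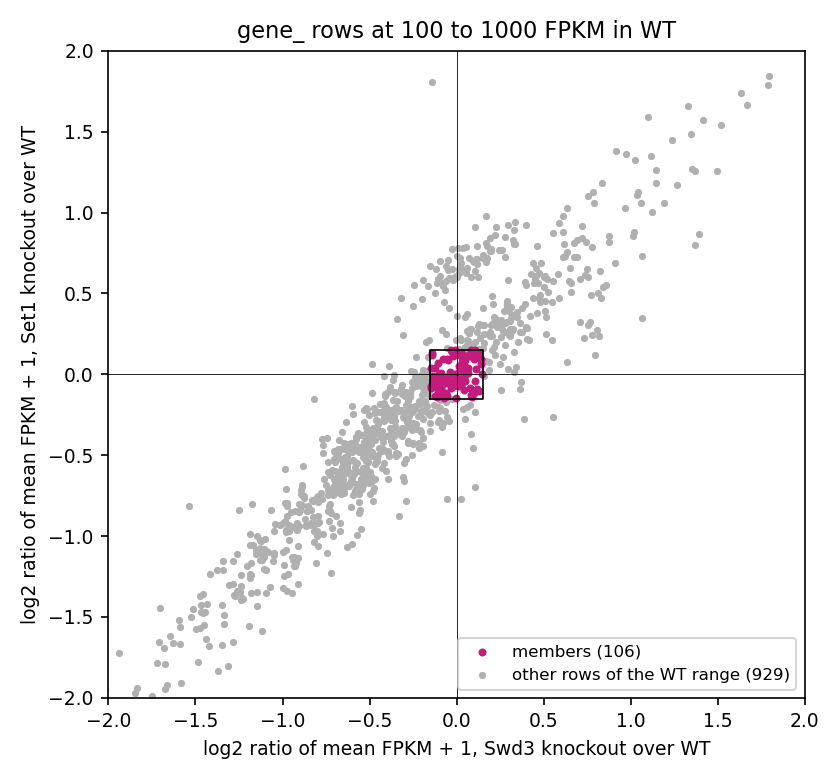
Each point is a gene_ row at 100 to 1000 FPKM in WT, with the log2 ratio of mean FPKM + 1 in the Swd3 knockout over WT on the x axis and in the Set1 knockout over WT on the y axis. The square marks the bound of 0.15 around the 106 members (magenta), most of the 929 other rows (grey) lie along the diagonal below and above it, and 34 rows fall outside the plotted range.

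The ratios filled the whole square. Over the 106 members the log2 ratio in the Swd3 knockout ran from -0.15 to 0.15 with a median of -0.01, and in the Set1 knockout from -0.15 to 0.15 with a median of -0.01. Both ratios were above 0 for 33 members and below 0 for 40. For 17 members the Swd3 knockout was above and the Set1 knockout below WT, and for 16 the signs were the other way round. Both comparisons share the WT libraries, so like signs are no separate evidence. The members together summed to 26104 ± 201 FPKM in the Swd3 knockout, 26273 ± 71.5 FPKM in the Set1 knockout and 26277 ± 186 FPKM in WT (SD, n = 3 each). They took 3.68 ± 0.0243% of the summed FPKM in the Swd3 knockout, 3.62 ± 0.0203% in the Set1 knockout and 3.70 ± 0.0102% in WT. The lower share in the Set1 knockout stands beside a higher total there, of 726801 ± 3839 FPKM, against 709424 ± 5365 FPKM in WT.

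The members spanned the range unevenly, with most near its lower end. Their median WT level was 162 FPKM, with quartiles at 122 and 275 FPKM. The highest was gene_4378, with 909.9, 865.9 and 962 FPKM in the Swd3 knockout, 1002, 1004 and 1060.4 FPKM in the Set1 knockout and 969, 1017 and 999 FPKM in WT. All 3 of its Swd3 libraries were below all of its Set1 and WT libraries. Next came gene_4076, with 901, 968 and 940.1 FPKM in the Swd3 knockout, 952, 985 and 969 FPKM in the Set1 knockout and 964, 1032 and 968 FPKM in WT. Its groups overlapped. At the lower end stood gene_1677, with 115, 108 and 101 FPKM in the Swd3 knockout, 113, 102 and 107 FPKM in the Set1 knockout and 98.7, 95.1 and 107 FPKM in WT. The second lowest was gene_1070, with 105, 104 and 103 FPKM in the Swd3 knockout, 100.2, 96.0 and 104 FPKM in the Set1 knockout and 99.95, 102 and 99.7 FPKM in WT. Both of these lie close to the lower limit of the range in every library. Just under it, gene_8068 met both bounds with means of 99.4 FPKM in the Swd3 knockout, 103 FPKM in the Set1 knockout and 99.0 FPKM in WT.

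The members closest to WT were gene_4595 and gene_7189. Gene_4595 had 244, 232 and 225 FPKM in the Swd3 knockout, 239, 234 and 234 FPKM in the Set1 knockout and 245, 236 and 225 FPKM in WT. Its means were 234 ± 9.13, 236 ± 3.14 and 235 ± 9.72 FPKM in the same groups (SD, n = 3), and its log2 ratios over WT were -0.0096 in the Swd3 and 0.0030 in the Set1 knockout. Gene_7189 had 209, 215 and 202 FPKM in the Swd3 knockout, 212, 199.6 and 217 FPKM in the Set1 knockout and 216, 195 and 213 FPKM in WT, so the 3 groups overlapped.

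A small difference between means did not always go with a small spread between libraries. The narrowest range over all 9 libraries was that of gene_7732, which stood at 584, 569.9 and 576 FPKM in the Swd3 knockout, 547, 550.1 and 551 FPKM in the Set1 knockout and 563, 574 and 545 FPKM in WT. Its highest library was 1.07 times its lowest, although its Swd3 libraries all lay above its Set1 libraries. Gene_4672 followed at 1.08 times, with 98.2, 102 and 97.4 FPKM in the Swd3 knockout, 103, 99.0 and 97.6 FPKM in the Set1 knockout and 102, 105 and 102 FPKM in WT. The widest range was that of gene_685, with 160.4, 136 and 117 FPKM in the Swd3 knockout, 156, 115 and 121 FPKM in the Set1 knockout and 148, 104 and 159 FPKM in WT. It met the rule because its 3 means were alike, at 138 ± 21.6 FPKM in the Swd3 knockout, 131 ± 22.2 FPKM in the Set1 knockout and 137 ± 29.0 FPKM in WT (SD, n = 3), while its highest library was 1.54 times its lowest. Over all members the ratio of the highest to the lowest library had a median of 1.16, and it was under 1.2 for 75 members and under 1.5 for 105.

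**Figure D2:**
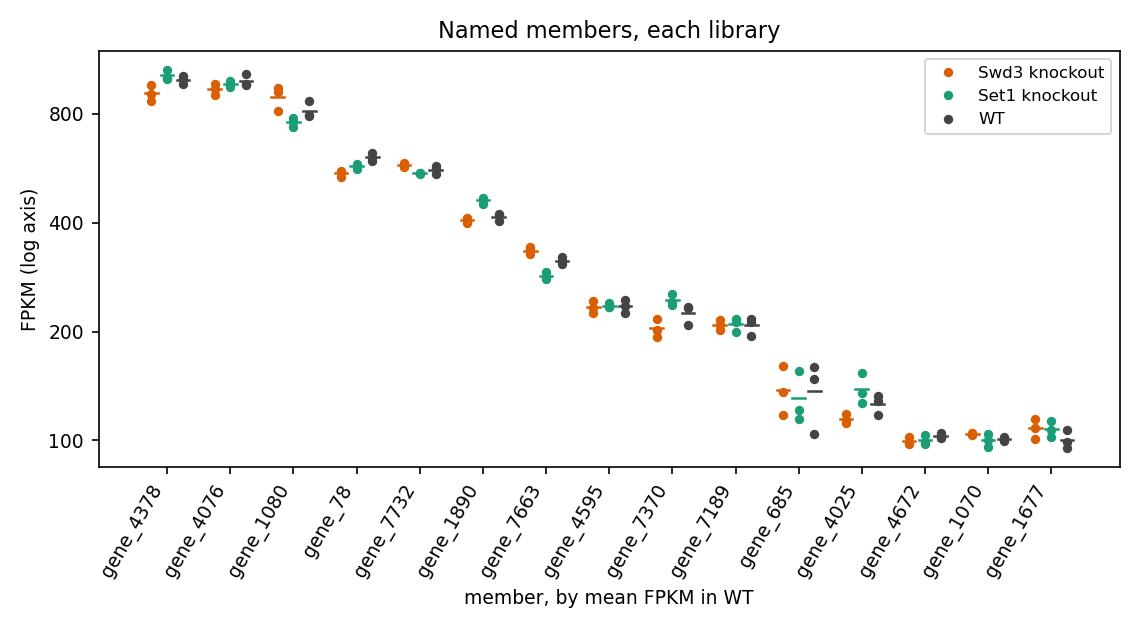
FPKM of 15 named members (log axis) in each library, ordered by mean FPKM in WT, with the 3 libraries of the Swd3 knockout, the Set1 knockout and WT as points and their mean as a short line. The libraries of gene_7732 lie within 1.07-fold of each other, whereas those of gene_685 spread over 1.54-fold within overlapping groups.

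Within the bound, the knockouts differed most from each other where they stood on opposite sides of WT. These differences follow from both ratios and are given as a description. Gene_1080 had 813, 918 and 945 FPKM in the Swd3 knockout, against 736, 762 and 780.3 FPKM in the Set1 knockout, with 795, 866 and 787 FPKM in WT. Its log2 ratio of Swd3 over Set1 was 0.23, and the knockouts did not overlap. Gene_7663 had the same ratio of 0.23, with 343, 334 and 328 FPKM in the Swd3 knockout and 292, 279.9 and 283 FPKM in the Set1 knockout, while its WT libraries lay between them at 321, 308 and 314 FPKM. The lowest ratio of Swd3 over Set1 was -0.27 for gene_4025, at 111, 114 and 118 FPKM in the Swd3 knockout and 154, 127 and 136 FPKM in the Set1 knockout, with 129, 118 and 133 FPKM in WT. Gene_7370 followed at -0.26, with 217, 202 and 194 FPKM in the Swd3 knockout and 253, 237 and 241 FPKM in the Set1 knockout, with 232, 209 and 234 FPKM in WT. Across the 106 members the median absolute log2 ratio of Swd3 over Set1 was 0.057, against 0.13 across the 929 other rows of the range.

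The bound itself marks no gap in the data. The members nearest to it were gene_1890, with a log2 ratio of 0.1496 in the Set1 knockout, and gene_78, with -0.1492 in the Swd3 knockout. Gene_1890 had 412, 399 and 409.5 FPKM in the Swd3 knockout, 469, 450.3 and 463 FPKM in the Set1 knockout and 422, 404 and 421 FPKM in WT. Gene_78 had 534, 556 and 553 FPKM in the Swd3 knockout, 563, 582 and 574 FPKM in the Set1 knockout and 606, 624 and 592 FPKM in WT. For gene_1890 the Set1 libraries were all above WT, and for gene_78 the libraries of both knockouts were all below WT. Just outside stood gene_2755, with a ratio of -0.1500 in the Swd3 knockout, where its mean was 561 ± 46.1 FPKM, against 623 ± 15.9 FPKM in WT (SD, n = 3). The next was gene_8222, with a ratio of 0.1514 in the Set1 knockout, where its mean was 216 ± 3.62 FPKM, against 194 ± 8.0 FPKM in WT (SD, n = 3). A bound of 0.10 would have kept 53 members and one of 0.20 would have taken 150.

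A fit over the whole table shows how finely these libraries resolve such genes. A linear model with a mean for each group was run on log2(FPKM + 1) of the 9153 rows that passed a filter on low values, and all 106 members passed it. The standard error of a member's log2 difference between 2 groups had a median of 0.05 and ran from 0.04 to 0.15. The 95% confidence interval of the difference from WT lay within 0.3 of 0 in both knockouts for 103 of the 106 members, but within 0.15 for only 8. For the others at least 1 interval reached past 0.15, so these data do not exclude a difference at the bound there. Among all rows tested the median absolute log2 difference was 0.59 for the Swd3 knockout and 0.59 for the Set1 knockout, against 0.07 and 0.07 among the members. The rule kept the members' differences small, so this contrast is a description.

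Some members passed the test against WT although their differences were small. In the Swd3 knockout 21 members passed (limma, adjusted p under 0.05), 6 higher and 15 lower than WT, where 80.7% of all rows tested passed. Among all rows 38.2% were higher and 42.5% lower in that comparison. In the Set1 knockout 24 members passed, 15 higher and 9 lower, where 81.1% of all rows passed, 37.8% higher and 43.3% lower. The absolute log2 differences of the members that passed ran from 0.09 to 0.15 in each comparison. Between the knockouts 15 members passed, 6 higher and 9 lower in the Swd3 than in the Set1 knockout, where 12.8% of all rows passed, 6.66% higher and 6.15% lower. Among the 929 other rows of the WT range 38.3% passed, 14.1% higher and 24.2% lower. The absolute log2 differences of the 15 members ran from 0.14 to 0.27. A further 59 members passed in none of the 3 comparisons, a count for which no share of all rows is given here. The rule used these contrasts, so nothing is read from the counts of members. The counts of members also changed when a library was left out. Their full ranges, given further below, include rises in both comparisons with WT as well as the falls listed here. A fit with fewer libraries has less power, so a fall does not show that a given library drove the calls. With a library left out, 77.4% to 80.5% of all rows passed in the Swd3 knockout and 77.6% to 80.1% in the Set1 knockout, and 8.02% to 12.9% between the knockouts. The 21 became 11 without Swd3 replicate 2, 11 without WT replicate 1 and 12 without WT replicate 3. The 24 became 10 without Set1 replicate 2, 14 without Set1 replicate 3, 9 without WT replicate 1 and 13 without WT replicate 3. The 15 became 7 without Set1 replicate 1, 7 without Set1 replicate 3 and 4 without Swd3 replicate 2, and the 1173 rows that passed between the knockouts over the whole table became 757 without Set1 replicate 3 and 733 without Swd3 replicate 2. Groups that did not overlap were found for 32 members in the Swd3 knockout against WT, where 80.3% of all rows did not overlap, and for 36 members in the Set1 knockout against WT, where it was 82.4%. Between the knockouts 33 members did not overlap, where 28.3% of all rows and 53.8% of the 929 other rows of the WT range did not.

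The direction of those small differences followed the scaling between libraries. The deposited values were used without further scaling above. With a median of ratios scaling, all members that passed lay above WT, 22 in the Swd3 knockout and 33 in the Set1 knockout. Over the whole table under that scaling, 41.0% of rows lay above and 40.1% below WT in the Swd3 knockout, with 41.2% above and 40.3% below in the Set1 knockout. Members lie near 0 by choice, so a shift by a single factor moves many of them to 1 side. With every library set to a common FPKM total, 3 were higher and 20 lower in the Set1 knockout (36.3% and 44.8% of all rows), and between the knockouts 11 were higher and 4 lower in Swd3 (8.54% and 4.77% of all rows). Quantile normalization, which gives all libraries the same distribution, gave 52 members above and 5 below WT in the Swd3 knockout, 43 above and 14 below WT in the Set1 knockout, and 15 above and 8 below Set1 in Swd3. Over the whole table it called 35.4% of rows above and 42.3% below WT in each knockout, and 8.14% above and 8.45% below Set1 in Swd3. As deposited, the split over the whole table between the knockouts was 610 higher and 563 lower in Swd3, and 782 and 437 at a common total.

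The label of steady genes was looked at in the same way, and its members changed with the scaling more than their number did. The rule found 106 rows at a common total, 104 with median of ratios scaling and 93 with quantile normalization, of which 96, 61 and 45 were among the 106 members. In all 3 scalings 31 members met the rule. Median of ratios scaling placed the members' median log2 ratio at 0.06 in the Swd3 and 0.07 in the Set1 knockout, where the median of all rows tested lay at 0.01 in each. As deposited, the median of all rows tested was -0.05 in the Swd3 and -0.06 in the Set1 knockout, so a set chosen near 0 sat slightly above the typical row in both. At a common total or with median of ratios scaling, 0 members reached a log2 ratio of 0.3 in either knockout, and 4 did under quantile normalization. Common total and median of ratios use a single factor per library. Within a knockout this shifts all members by nearly the same small amount, so the bound nearly fixed that result. FPKM values are relative to the library, so steady here means a steady share of the measured RNA. In mycelium, fewer cells with a transcript and less of it per cell cannot be told apart either.

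**Figure D3:**
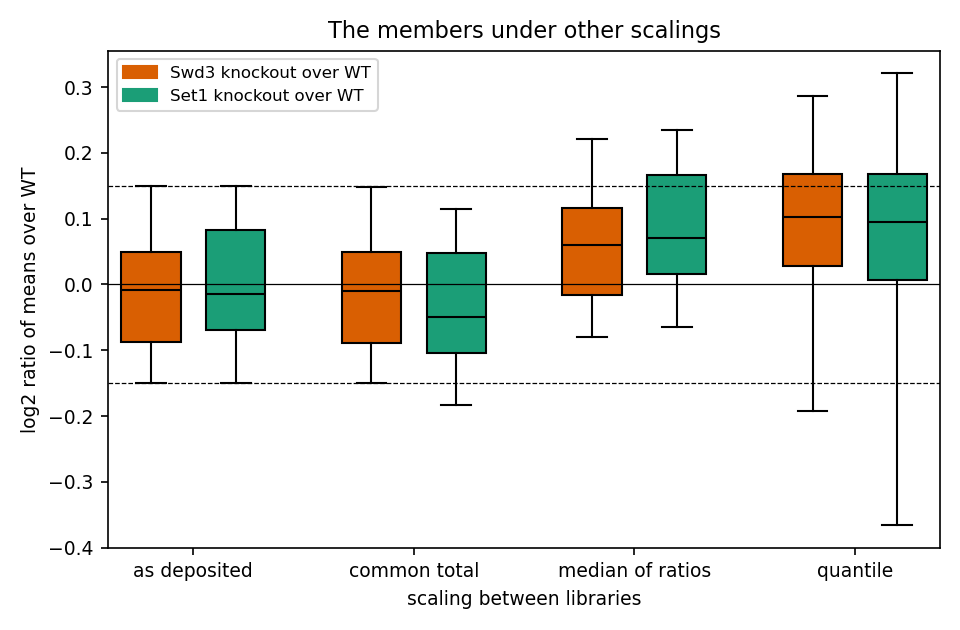
Log2 ratios of the group means (FPKM + 1) over WT for the 106 members as deposited and under 3 scalings, with the Swd3 knockout left of the Set1 knockout, boxes for the quartiles, whiskers to the lowest and highest member and dashed lines at the bound of 0.15. Median of ratios scaling and quantile normalization lift the medians to between 0.06 and 0.10, and 61 and 45 members still meet the rule.

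Libraries that a choice had not used gave ratios which that choice did not fix. They came from the same groups, whose spread may be technical, so they are no independent replicates of a knockout. The rule was applied without the libraries numbered 1, 2 or 3 in turn, and the ratios were then read from the 3 left-out libraries, 1 per group. Without number 1 the rule chose 108 rows, and in the left-out libraries 61 of them (56.5%) had both ratios within 0.15, against 30 of the 919 other rows of the WT range (3.26%). Without number 2 it chose 96 rows, of which 58 (60.4%) had both ratios within the bound, against 39 of 949 others (4.11%). Without number 3 it chose 106 rows, of which 53 (50.0%) did, against 40 of 917 others (4.36%). A ratio of at least 0.3 in either knockout was found in the left-out libraries for 4, 7 and 10 of the chosen rows, and for 773, 799 and 776 of the others. None of the chosen rows reached a 2-fold difference, and the widest ratio was 0.56. Each such ratio compares single libraries, so part of its size is the scatter between libraries, and the left-out WT library is shared by both ratios. Of the 106 members, 64 were chosen in all 3 of these rounds, and 61 stayed members whichever of the 9 libraries was left out.

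**Figure D4:**
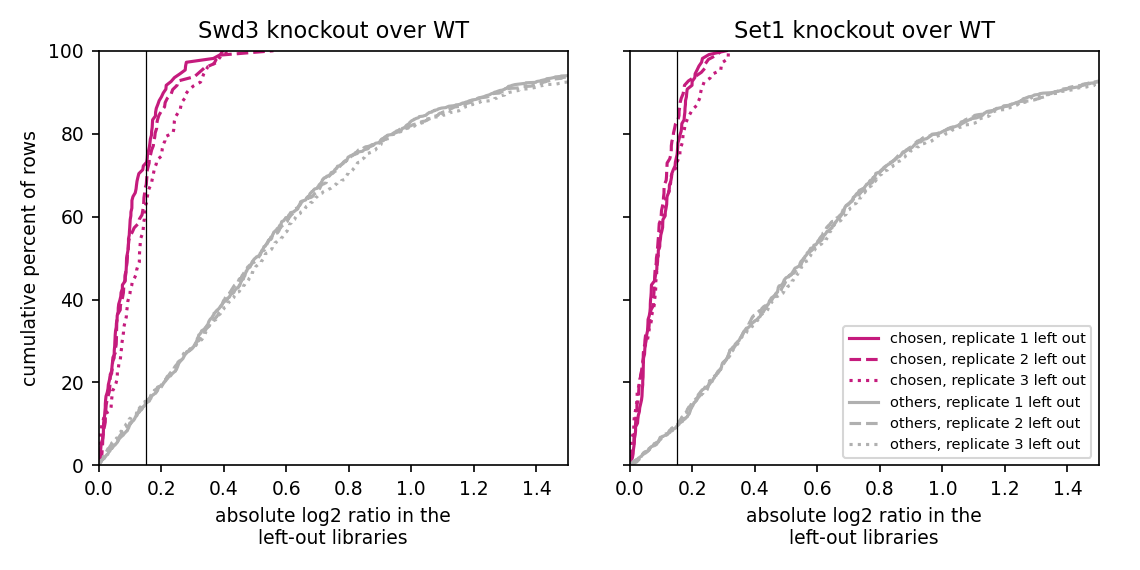
Cumulative percent of gene_ rows of the WT range by the absolute log2 ratio of FPKM + 1 over WT in the left-out libraries, for the Swd3 knockout on the left and the Set1 knockout on the right. Rows chosen from the other 6 libraries are magenta and all others grey, line style marks the replicate number left out, and the vertical line is the bound of 0.15, which both ratios met for 50.0% to 60.4% of the chosen rows.

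Single knockout libraries, which the choice of the members did use, lay close to the WT mean. Within 0.15 of it were 90, 94 and 93 of the 106 members in Swd3 libraries 1, 2 and 3, and 90, 88 and 96 in Set1 libraries 1, 2 and 3. The farthest member in any of these libraries had a log2 ratio of -0.29, so 0 members reached 0.3. Levels of the members correlated closely between libraries. On the log2(FPKM + 1) scale the Pearson correlation over the 106 members was 0.9874 to 0.9953 between Swd3 and WT libraries, 0.9859 to 0.9943 between Set1 and WT libraries and 0.9899 to 0.998 between WT libraries. Over the 929 other rows it was 0.7495 to 0.7701, 0.7552 to 0.7686 and 0.9888 to 0.996 for the same pairs. These describe genes that share their libraries, and the rule fixed the likeness of the members' means.

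The rule used means and not the spread between libraries of a group. In the Swd3 knockout the SD of log2(FPKM + 1) between the 3 libraries had a median of 0.055 over the members, against 0.069 over the 929 other rows of the WT range. In the Set1 knockout the medians were 0.046 and 0.051, and in WT 0.051 and 0.052. The members' SD was under 0.1 for 88 of 106 in the Swd3 knockout (83.0%), 94 in the Set1 knockout (88.7%) and 94 in WT (88.7%), where the shares of the other rows were 72.3%, 87.8% and 86.4%. The lower median in the Swd3 knockout was present in each part of the range, at 0.066 against 0.073 for 100 to 200 FPKM, 0.046 against 0.067 for 200 to 400 FPKM and 0.044 against 0.058 for 400 to 1000 FPKM. In the Set1 knockout and WT the members' median was the higher at 200 to 400 FPKM, with 0.058 against 0.053 in the Set1 knockout and 0.059 against 0.051 in WT. Scatter between libraries also moves the means, so rows with a large SD meet the rule less easily, and the part of this in the lower medians was not tested.

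**Figure D5:**
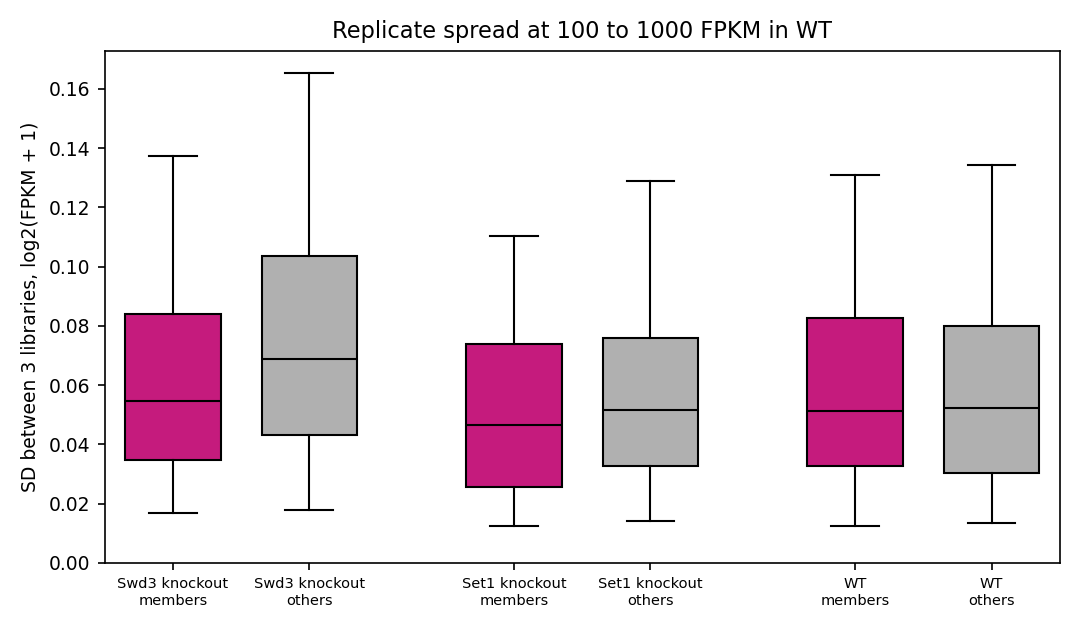
SD of log2(FPKM + 1) between the 3 libraries of a group for the 106 members (magenta) and the 929 other gene_ rows of the WT range (grey), with the median as a line, boxes for the quartiles and whiskers from the 5th to the 95th percentile. The medians are 0.055 and 0.069 in the Swd3 knockout, 0.046 and 0.051 in the Set1 knockout and 0.051 and 0.052 in WT.

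The libraries of the Swd3 knockout differed in level over the members. Against the mean of the group, Swd3 library 1 was higher for 73 of 106 members and library 3 for 30, with median deviations of 0.04 and -0.03 on the log2 scale. The other rows of the range deviated in the same directions, with 62.1% higher in library 1 and 36.5% in library 3 and medians of 0.03 and -0.02. Over all gene_ rows the medians were 0.07 and -0.06. In Set1 library 1, 63.2% of the members and 52.4% of the other rows lay above the group mean, with a median deviation of 0.01 for the members. In the Set1 and WT libraries the members' median deviations lay between -0.01 and 0.01. What sets libraries of a group apart from each other was not tested.

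The members were scattered over the numbering of the gene_ rows. The table gives no coordinates, and whether neighbouring numbers are neighbouring genes is not stated in it. Member numbers ran from 78 to 9541, in a numbering from 2 to 10020, with a median gap of 52 and a largest gap of 485. When the numbering was cut into 10 equal parts, each held 6 to 17 members. Among the members 2 pairs bore consecutive numbers, gene_4594 with gene_4595 and gene_5042 with gene_5043, and gene_3183 and gene_3185 were 2 numbers apart. These 6 rows were singled out after their values were seen. Gene_4594 had 144, 133 and 127 FPKM in the Swd3 knockout, 112, 125 and 112 FPKM in the Set1 knockout and 122, 131 and 119 FPKM in WT, so that its Swd3 libraries all lay above its Set1 libraries. Gene_5042 averaged 168 ± 9.47 FPKM in the Swd3 knockout, 152 ± 7.77 FPKM in the Set1 knockout and 163 ± 5.72 FPKM in WT, and gene_5043 averaged 125 ± 6.53, 118 ± 2.09 and 131 ± 4.42 FPKM in the same groups (SD, n = 3).

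Rows next in number to a member were not steady as a rule. The 106 members had 201 neighbours at the number before or after, and 26 of these (12.9%, exact 95% binomial interval 8.63% to 18.4%) met both bounds at any level. Of those 26, 4 were themselves members. Over all gene_ rows 9.23% of neighbours met both bounds, and 9.73% of the neighbours of the other rows of the WT range did. A difference from WT of at least 2-fold in either knockout was found for 39 neighbours (19.4%, exact 95% interval 14.2% to 25.6%), against 22.8% of the neighbours of the other rows of the WT range and 26.9% of those of all gene_ rows. Intervals treat neighbours as independent and cover counting error only. Of the members, 35 had at least 1 neighbour with a 2-fold difference. Of the 96 members with a row on both sides, 4 had such a neighbour on both. No share of all gene_ rows is given for these counts, so nothing is read from them. The neighbours' median WT level was 22.9 FPKM, and 31 of the 201 lay in the range of 100 to 1000 FPKM.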

How the data were processed

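RNA-seq libraries were made from total RNA of mycelium with a SMARTER mRNA-seq kit, per the labels' protocols. The submitters' processing notes name FastQC, HISAT2 and StringTie, and their versions, a genome build, an annotation or a strand setting were not given in the sources used here. FPKM values were deposited by the authors in a single table with a column per library, without counts, so no count test, counting interval of a level or detection floor was computed. Of its 9869 rows, 0 matched the 9270 entries of the reference gene list, so no gene list, sequence or position is used. Each column bears the name of 1 sample title.

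Members were chosen by the rule given above. The members, the lists and the comparisons were chosen with earlier results of these data known. Rows with at least 1 FPKM in at least 3 libraries (9153) were fitted as log2(FPKM + 1) with limma 3.58.1 in R 4.3.3, with a mean per group, empirical Bayes with a trend and Benjamini-Hochberg adjustment over all rows tested, at a threshold of 0.05. The fit was tested on simulated data with changes larger than those of the members and no shifts between libraries. That test therefore does not show how well differences as small as the members' are called. Fold changes understate changes of low rows. Named rows are the 2 members highest and the 2 lowest in WT, the 2 closest to WT, the 2 with the narrowest and the 2 with the widest range over 9 libraries, the 2 highest and 2 lowest in Swd3 over Set1, the 2 nearest inside the bound, and 2 non-members nearest outside it. Gene_8068 and the rows of near numbers were added after their values were seen. Alternatives were other pseudocounts, filters, scalings, bounds, medians, fits and left-out libraries. Same-numbered libraries were not taken as pairs, since the labels name no shared batch.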

Additional observations from a re-analysis of the deposited data

Results flagged for a closer look

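The test of the Swd3 minus Set1 difference (limma, adjusted p under 0.05 over all rows tested) was passed by 12.8% of all rows tested. It was passed by 38.3% of the 929 other rows of the WT range and by 15 of the 106 members. Of the named members, 6 passed it and were flagged, because their change against WT differed between the knockouts. Of these, gene_7663, gene_1080, gene_7370 and gene_4025 were named for this difference, gene_1890 for a ratio near the bound and gene_4378 for its WT level, and the rule for members limits the difference of all 6, so the values are a description. On the log2(FPKM + 1) scale the Swd3 minus Set1 difference was 0.23 for gene_7663 (SE 0.04), 0.23 for gene_1080 (SE 0.06), -0.16 for gene_4378 (SE 0.05), -0.18 for gene_1890 (SE 0.04), -0.26 for gene_7370 (SE 0.06) and -0.27 for gene_4025 (SE 0.07), with 3 libraries in each group. The difference of gene_4378 did not keep its sign under quantile normalization, where it was 0.028 and did not pass. For gene_1080, gene_7663, gene_4378, gene_1890, gene_7370 and gene_4025 the libraries of the knockouts did not overlap, as for 28.3% of all rows. Groups of 3 libraries are too small for a check of single outlying libraries.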

How the results depend on the processing

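The number of members was 106 with a pseudocount of 0.5, 105 with 0.1 and 97 with group medians, of which 106, 105 and 82 were among the 106. It was 53 with a bound of 0.10, and 96 to 109 with any library or replicate number left out. Quantile normalization moved the members called to 57 in the Swd3 knockout, 57 in the Set1 knockout and 23 between the knockouts, where it called 77.7%, 77.7% and 16.6% of all rows. Leaving out a library gave 11 to 22, 9 to 28 and 4 to 15 members called for the same comparisons, and 733 to 1180 rows called between the knockouts. The members' median SD, pooled over groups, was 0.0563, and 0.0506 to 0.0621 with a library left out. With the replicate number as a block, 26 members were called in the Swd3 knockout, 28 in the Set1 knockout and 19 between the knockouts, against 21, 24 and 15, where 82.1%, 82.2% and 15% of all rows were called with the block. The block moved no count by over 1.5 times, 4 of 9 same-number pairs of libraries had deviations correlated above 0.1, and 1 of 9 libraries correlated best with its own number in both other groups. Of 784 alternative values of named rows, 694 kept their side of the threshold, 43 passed it, 40 lost it and 7 reversed, all 7 under quantile normalization. Those for Swd3 minus Set1 were 0.028 for gene_4378, 0.16 for gene_4076 and 0.15 for gene_78. Against WT they were 0.13 for gene_4672 in the Swd3 knockout, and 0.14 for gene_4672, -0.11 for gene_4378 and 0.16 for gene_1070 in the Set1 knockout. The cause was not tested. Not every change of sign was counted as reversed. With median of ratios scaling, the log2 ratio of gene_4672 over WT went from -0.051 to 0.017 in the Swd3 knockout. In the Set1 knockout it went from -0.043 to 0.040. Neighbours up to 3 numbers away had a 2-fold difference in 23.7% of cases, inside the interval for the nearest ones. At that distance it was 24.3% for neighbours of the other rows of the WT range and 26.9% for those of all gene_ rows. Unknown depth and 3 libraries per group limit how small a difference can be resolved.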

Other observations

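Of the rows at 100 to 1000 FPKM in WT that met the bound in the Swd3 knockout alone, 44 stood at a log2 ratio of at least 0.5 above WT in the Set1 knockout, a class chosen after the data were seen. Their median log2 ratio over WT was 0.01 in the Swd3 and 0.65 in the Set1 knockout, and the median of their means was 468 FPKM in the Swd3 knockout, 745 FPKM in the Set1 knockout and 454 FPKM in WT. For 43 of the 44, every Swd3 library lay below every Set1 library, which the way the class was cut nearly fixes, and the knockouts did not overlap in 28.3% of all rows tested. They were abundant within the range, with 30 at 400 FPKM or more in WT, where 16 of the members stood. The mirror class, within the bound in the Set1 knockout and at least 0.5 above WT in the Swd3 knockout, held 2 rows. The classes were cut from these values, so they are a description with no test.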
